A study of Rattus norvegicus with 8 samples.

Results

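The comparison described here is that of 3 rat brains taken after 2 hr of isoflurane with 3 control brains, 6 of the 8 samples in the series. They were chosen by their titles alone. Each sample was total RNA of a whole brain, hybridised to 1 short-oligonucleotide rat genome array. Per the labels, each control rat was intubated, breathed the volatile anaesthetic isoflurane for 3 min and was then perfused at once with cold saline. The 2 hr rats were intubated and breathed 2% isoflurane for 2 hr. The sources used here do not say whether they were perfused, nor the strain, sex or age of any rat. The remaining 2 samples, from a 1 hr exposure to 2% isoflurane, are not compared here. They entered the shared estimate of the spread, the intensity floor, and the choice of probe sets tested and of array blocks. Their readings are given for Psat1 and Fos. All groups had a tube and some isoflurane, so the comparison sets a long exposure against a brief one, not anaesthesia against none. The labels name no animal numbers, so p-values rest on sample-to-sample spread that may in part be technical.

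Isoflurane keeps an animal unconscious by acting on many proteins of the synapse. It strengthens currents through GABA-A and glycine receptors, opens tandem-pore potassium channels and depresses glutamate release and glutamate receptors. Transcripts respond on a slower scale. Immediate early genes such as Fos, Arc and Nr4a1 are switched on within minutes of neuronal firing and their messages are short-lived, while the stress of handling and surgery reaches the brain through glucocorticoids.

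The array reads a gene through 1 or more probe sets, each a group of short oligonucleotides near the 3' end of a transcript, and the deposited value is 1 intensity for each probe set on each array. Values below 9.1, the 20th percentile over the series, were raised to it before log2 was taken. A difference on the log2 scale is the mean of the 2 hr arrays minus the mean of the control arrays. Intensity depends on the probes as well as on the transcript, so no level is set against that of another probe set. Array values are given in the order of replicates 1, 2 and 3, with the controls first and the 2 hr arrays after the word against. A probe set is called bright here when it read at least 128, or 7 on the log2 scale, on all 6 arrays.

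The 6 arrays were not alike. Their 2% trimmed means lay between 150.17 and 150.32, but the highest single intensity was 24393 on control replicate 3 and 37712 on 2 hr replicate 3, against 3504 on 2 hr replicate 2 and 9846 to 12445 on the other 3. The 5S ribosomal RNA control gave 12.9 to 23.7 on control replicates 1 and 2 and 2 hr replicate 1, and 73.3 to 141.7 on the rest. For actin the ratio of 3' to 5' signal reached 2.88 in control replicate 3, against 1.04 to 1.68 elsewhere. Correlations between the arrays ran from 0.876 to 0.969 over all probe sets, and the 5 lowest of the 15 pairs each held control replicate 3 (0.876 to 0.911). Both properties cross the groups, so differences are also given between the 2 arrays of high top values (control replicate 3 and 2 hr replicate 3), between the other 4, and within the arrays of low and of higher 5S reading.

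Markers of neurons, astrocytes and oligodendrocytes were present and overlapped between the groups. Their summed intensities were 6203 to 11225 in controls and 7141 to 10490.0 after 2 hr for neurons (6 markers, Thy1 and Snap25 among them), 10789 to 15620.0 and 5422 to 15280.0 for astrocytes, and 7407 to 10781 and 5190.0 to 10201 for oligodendrocytes. The sums of 3 other marker lists did not overlap. The gap of each was lost without its largest member, as given next. Those of microglia and macrophages (4 of 4 members higher) were 545 to 568 and 588 to 1045, those of endothelium (2 of 4 higher) 437 to 984 and 1140.0 to 1509, and those of meninges (4 of 5 higher) 409 to 848 and 923 to 1080.0. Without C1qb the microglial sums overlapped (101 to 221 and 212 to 337), as did the endothelial sums without Slc2a1 (127 to 163 and 128 to 168) and the meningeal sums without Col1a1 (279 to 448 and 425 to 701). On their own, C1qb and Col1a1 overlapped between the groups, and Slc2a1 did not. Pituitary markers summed to 245 to 251 in controls and to 232, 907 and 229 after 2 hr, with 2 hr replicate 2 far above the rest. Blood, choroid plexus, liver and muscle markers overlapped. No marker on the array sat at the floor on all 6 arrays. In whole brain, fewer cells of a type and less RNA per cell cannot be told apart, and how far the content of these cells enters the gene values below was not tested.

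No single probe set passed. In limma, 0 of 7770 probe sets tested had an adjusted p under 0.05 (0% called). Sgk1 came nearest, with 0.492. An unadjusted limma p under 0.05 was reached by 139 probe sets, 1.79%, where independent tests would give 388.5. They divided into 86 higher (1.11%) and 53 lower (0.682%). That division moved with the scaling, to 84 higher and 85 lower under quantile normalization and to 61 and 92 under median centring. Control and 2 hr arrays did not overlap for 423 probe sets, 5.44%, of which 225 (2.9%) were higher and 198 (2.55%) lower. Independent values from groups this small, with no difference between them, would separate more often than this.

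Of the 7770 probe sets, 1638 (21.1%) were bright on all 6 arrays, and they named 1103 genes. The bright probe sets gave no larger share of separated groups than the rest: 75 did not overlap, 4.58%, with 31 higher (1.89%) and 44 lower (2.69%). Median centring gave 14 higher and 71 lower among 85. By gene, on the brightest probe set, 59 of 1103 did not overlap (5.35%): 23 were higher without overlap (2.09%) and 36 lower (3.26%). The median change was 0.0025 over bright genes, with 50.6% higher, and 0.018 over all probe sets tested, with 52.3% higher. The demand for brightness on every array itself set aside 651 probe sets whose mean was at least 7, 415 of them higher and 236 lower after 2 hr. At the limit, Hdac6 (rc_AA892036_at) was just inside with a lowest reading of 128.0, and Phkg1 (X07320_at) just outside with 127.7.

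Sorted by mean brightness, the probe sets showed no shift except at the top. The median change was -0.01 over 2922 probe sets with a mean log2 intensity under 5, 0.05 over 2559 from 5 to 7, 0.05 over 1559 from 7 to 9 and below 0.01 in size over 544 from 9 to 11. Over the 186 probe sets of 11 and over it was -0.23, with quartiles of -0.49 and -0.03, and 22.6% were higher after 2 hr. The spread between replicates was also widest there, with a median SD of 0.81 against 0.43 for the class from 7 to 9. The class mean was 11.89 ± 0.36 (SD, n = 3) in controls and 11.61 ± 0.83 (SD, n = 3) after 2 hr, so the difference lay within the spread. Changes beyond 1 on the log2 scale were seen in 3.76% of probe sets under 5, in 0.55% from 9 to 11 and in 5.38% of those of 11 and over.

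**Figure D1:**
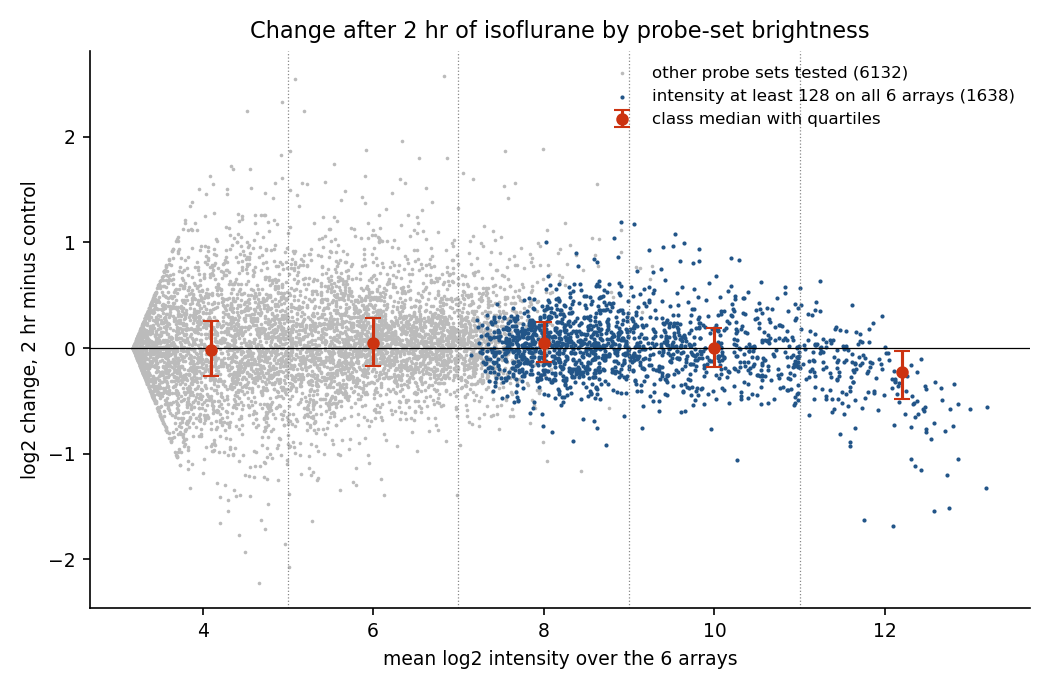
Log2 change (2 hr minus control) of each of 7770 probe sets against its mean log2 intensity over the 6 arrays, with the 1638 bright probe sets in blue and the median and quartiles of each brightness class in red. The class medians lie near 0 except in the highest class, where the median is -0.23.

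The values by array were uneven. The means of the highest class were 11.81, 11.58 and 12.29 on the control arrays and 11.56, 10.80 and 12.46 after 2 hr. Replicate 2 of the 2 hr group was the lowest array for 112 of the 186 probe sets (60.2%) and the highest for 0. Control replicate 3 was the highest for 82 and 2 hr replicate 3 for 76. Leaving out 2 hr replicate 2 turned the median of this class to 0.13, and leaving out control replicate 3 gave -0.06. Quantile normalization gave 0.06. Between the 2 arrays of high top values the median was 0.08, and between the other 4 it was -0.36. It was -0.14 within the arrays of low 5S reading and -0.80 within the others. Ribosomal protein probe sets made up 28 of the 186 and had a median of -0.21, and the other 158 had one of -0.23.

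**Figure D2:**
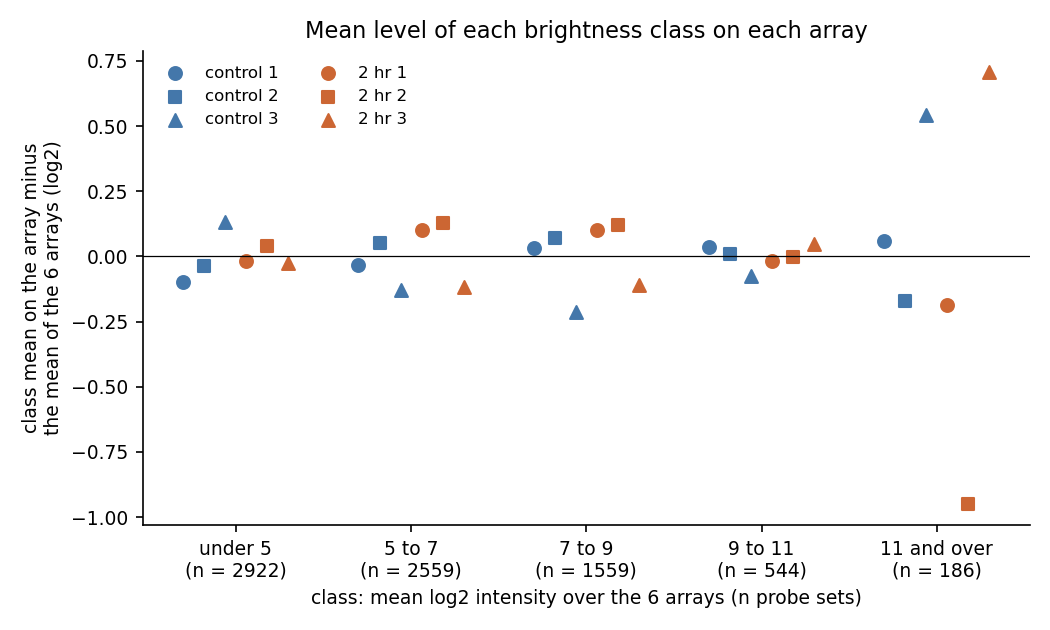
Mean log2 intensity of each brightness class on each of the 6 arrays, minus the mean of the 6, with controls in blue, 2 hr arrays in orange and 1 symbol per replicate. In the highest class 2 hr replicate 2, at 10.80, lies far below the others, and both replicates 3, at 12.29 and 12.46, lie above them.

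The highest class held messages that brain cells make in large amounts. Apoe (X04979_at), the lipid carrier made by astrocytes, read 10069.6, 8105 and 14686 in controls and 7962, 979.6 and 17436 after 2 hr. Cst3 (rc_AI231292_g_at), the secreted protease inhibitor cystatin C, read 6607, 4746 and 14427 against 5705, 681 and 11506. Mbp (K00512_at), myelin basic protein, read 6219.5, 5930.2 and 4909 against 5741, 1172 and 5963. In each, 2 hr replicate 2 was far the lowest of the 6 arrays. The other 2 hr arrays of Cst3 and Mbp lay among the controls, and those of Apoe lay just below and above them. The log2 changes were -1.05 (SE 1.14), -1.11 (SE 1.04) and -0.72 (SE 0.691), and without 2 hr replicate 2 they were 0.15, 0.08 and 0.05. S100b (S53527mRNA_s_at), a calcium-binding protein of astrocytes, had the same form, with 3948, 4785 and 5666 against 4753, 1552 and 4312. Cox4i1 (rc_AA818226_s_at), a subunit of cytochrome oxidase picked after its values were seen, read 9585, 7475 and 15167 against 7336, 672 and 18196, again with 2 hr replicate 2 lowest. Its 2 other bright probe sets gave -0.43 and 0.09 beside -1.20 here.

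Among bright genes without overlap, the 12 of smallest unadjusted p were named in each direction. None passed: every adjusted p in limma was 1.0, and all were above the 0.05 threshold. These genes were chosen for a gap between the groups, so the gap itself is a description. Psat1 (rc_AI230228_at), an aminotransferase of serine synthesis, read 367, 429 and 201 on the control arrays and 656, 876 and 661 after 2 hr, 2.29-fold higher (SE 0.335 on the log2 scale). The brightest probe set of Psat1 (rc_AI102868_g_at), which is the one used in the counts by gene, went the other way with overlap, 780.2, 626 and 431 against 379.7, 585 and 506, a log2 change of -0.30. The 1 hr arrays read 438 and 632 on the dimmer of this pair, above every control and below every 2 hr array.

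Gabbr1, Dlg4, Dlgap4 and Syn2 encode synaptic proteins and are placed together here after their values were seen. Gabbr1 (AB016160_at), the subunit of the metabotropic GABA-B receptor that binds GABA, read 847, 394 and 398 against 852, 1221 and 1201, a log2 change of 1.08 (SE 0.434). Control replicate 1 lay just under 2 hr replicate 1, so the gap between the groups was narrow. Its other probe sets, none bright, gave 0.81, 0.27 and -1.07. Dlg4 (M96853_at), the scaffold PSD-95 of excitatory synapses, read 391, 485 and 338 against 531, 546 and 624, 1.41-fold higher. Dlgap4 (U67140_at), which binds PSD-95, read 195, 225 and 143 against 286, 445 and 394, 2.0-fold higher, with 0.34 on a dimmer probe set. Syn2 (rc_AI145494_at), a synapsin that ties vesicles to the cytoskeleton, read 308, 245 and 286 against 339, 353 and 397. All 3 probe sets of Syn2 were higher, by 0.38, 0.46 and 0.76, but the groups overlapped on the dimmer pair, and on the last control replicate 3 stood alone at 35.3.

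Slc2a1, Mvd and Elovl5 act in glucose transport and lipid synthesis. Slc2a1 (S68135_s_at), which carries glucose across the blood-brain barrier, read 828, 805 and 274 against 1080.1, 997 and 1340.2, a log2 change of 0.99 (SE 0.428). Control replicate 3 was the low array, and without it the change was 0.47. A second probe set (M13979_at), at 278, 256 and 72.7 against 299, 377 and 269, gave 0.85 with the same low array. Mvd (U53706_at), which decarboxylates mevalonate on the way to cholesterol, read 170.4, 187 and 168 against 214, 254 and 216, 1.3-fold higher. Elovl5 (rc_AA892832_at), a fatty acid elongase, read 309, 304 and 232 against 482, 363 and 312, and its change of 0.44 was 0.27 without 2 hr replicate 1.

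Sparc (rc_AA946313_s_at), a secreted collagen-binding protein, read 447, 503 and 337 against 544, 1068 and 594. Its change of 0.73 was 0.425 without 2 hr replicate 2, and its other probe sets gave -0.38, 0.13 and 0.02. Ccnd3 (D16309_g_at), cyclin D3, read 242, 237 and 255 against 295, 365 and 363, with controls close together and a change of 0.47. Its dimmer probe sets gave 1.60, 0.26 and -0.02. Ptpn1 (M33962_g_at), the tyrosine phosphatase PTP1B, read 413, 418 and 202 against 519.9, 459 and 497. Here control replicate 3 was the low array, and the change of 0.59 was 0.24 without it. A second bright probe set gave -0.05, and 3 dimmer ones 0.44 to 0.46. Pttg1ip (rc_AA799616_at), a membrane protein that binds securin, read 309.7, 284 and 209.6 against 321, 427 and 399, 1.44-fold higher. Its log2 change of 0.52 was 0.355 without control replicate 3. It was 0.11 within the low 5S arrays and 0.98 within the others.

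Of the genes that read lower, Fos had the smallest unadjusted p. Fos (X06769cds_g_at), the transcription factor most used to mark recent neuronal firing, read 358, 309 and 423 in controls and 179.7, 233 and 214 after 2 hr, 1.73-fold lower (log2 change -0.79, SE 0.246). Every 2 hr array lay below the lowest control. Its other probe sets were not bright. The one named X03347cds_g_at read 348, 179.5 and 138 against 68.5, 76.2 and 91.5 without overlap, a change of -1.39, and X06769cds_at read 86.6, 57.3 and 40 against 30.2, 12.9 and 42.2, a change of -1.20. With any 1 array left out the change of the bright probe set stayed between -0.90 and -0.68. It was -0.98 between the arrays of high top values and -0.70 between the other 4, and -0.89 and -0.92 within the low and higher 5S arrays. The 1 hr arrays read 222 and 271.

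The other lower genes follow in no order of size. Blvra (M81681_at), the reductase that turns biliverdin into bilirubin, read 355, 325 and 395 against 250, 235 and 269, 1.42-fold lower (SE 0.222). Prdx2 (U06099_at), a peroxide-removing peroxiredoxin of neurons, read 1416, 1293 and 1800.5 against 1016, 1176 and 1067, 1.37-fold lower. Btg1 (L26268_at), an antiproliferative factor, read 383, 357 and 372 against 273, 269 and 289, with replicates close together and a change of -0.42, and its second, dimmer probe set gave -0.13. Cdo1 (rc_AA942685_at), which oxidises cysteine, read 463, 438 and 436 against 399.5, 218 and 249.9, with 2 hr replicate 1 close to the controls. Its change of -0.67 was -0.17 within the low 5S arrays and -0.90 within the others. Fam83f (rc_AI639533_at) read 270.5, 193 and 267 against 154, 192 and 162, where control replicate 2 and 2 hr replicate 2 almost met, and a dimmer probe set gave 0.01.

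Hpca (D12573_at), the neuronal calcium sensor hippocalcin, read 1611, 1724 and 2088 against 1541, 1044 and 1189.9, a change of -0.53 (SE 0.315). That change was -0.113 within the low 5S arrays and -0.905 within the others. Gnb1 (U88324_g_at), a G protein beta subunit, read 983, 1247 and 931 against 679, 792 and 838, but 2 other probe sets gave -0.12 and 0.46. Ppp2r2a (M83298_g_at), a regulatory subunit of protein phosphatase 2A, read 601, 761 and 731 against 591, 429.7 and 421, 1.46-fold lower, with control replicate 1 just above 2 hr replicate 1. Arpc4 (rc_AA892332_at), part of the complex that branches actin filaments, read 754, 758 and 874 against 617, 648 and 506. Psmd1 (rc_AA859869_s_at), a subunit of the proteasome cap, read 433, 436 and 466 against 401, 326 and 304, while its brighter probe set gave -0.01. Nsfl1c (AB002086_at), the p47 cofactor of the ATPase p97, read 545, 593 and 708 against 508, 479.8 and 248, and its change of -0.64 was -0.31 without 2 hr replicate 3. Its brighter probe set gave -0.07 with overlap.

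**Figure D3:**
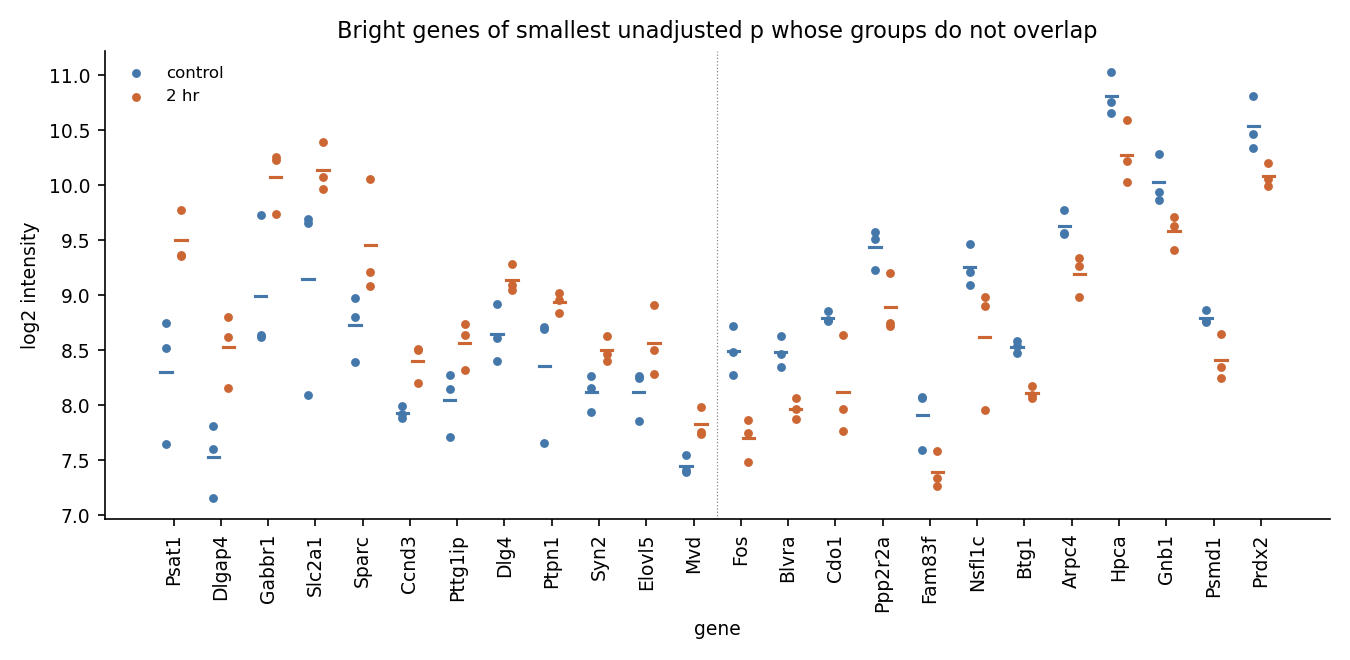
Log2 intensity of the 12 higher and 12 lower bright genes of smallest unadjusted p on each of the 3 control (blue) and 3 2 hr (orange) arrays, with a short line at each group mean. By choice the groups of each gene do not overlap, and for several, Gabbr1, Fam83f, Pttg1ip and Hpca among them, the gap between the nearest arrays is narrow beside the spread within a group.

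Probe sets of 1 gene gave a check that the arrays carry within themselves. Of the genes, 225 had 2 or more bright probe sets, 492 in all. The brightest and second brightest agreed in the sign of the change for 150 of the 225, 66.7% (exact 95% interval 60.1% to 72.8%, counting error only). The share was 66.7% (70 of 105) for pairs designed on the same database sequence, as their names give it, and 66.7% (80 of 120) for pairs designed on different ones. Over the 225 pairs the changes had a Pearson r of 0.42 and a Spearman rho of 0.42, given as a description of pairs that share the same 6 arrays. The median difference was 0.18, and 12.9% of pairs differed by more than 0.5. In 811 genes with no bright probe set, 58.4% agreed in sign (exact interval 55.0% to 61.9%), with a median difference of 0.30.

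No gene had all its bright probe sets without overlap in 1 direction. Of the 492 bright probe sets of these genes 17 did not overlap, 3.46%, against 4.58% of all bright probe sets, and each belonged to a different gene. For 19 genes the change on the brightest probe set was beyond 0.5 in size, and the second had the same sign in 11 and was itself beyond 0.5 in 4. Those 4 were Apoe (-1.05 and -0.86), Cst3 (-1.11 and -0.75), Cox8a (-1.05 and -1.69), a subunit of cytochrome oxidase, and Stx1a (0.83 and 0.65), the syntaxin of transmitter release. In each pair the same array was the lowest on both probe sets, 2 hr replicate 2 for the first 3 genes and control replicate 3 for Stx1a. These genes were picked out after their values were seen. The Cox8a probe set rc_AI102505_g_at read 7001, 6396 and 10769 against 5990.1, 233 and 10379. The Stx1a probe sets read 1692, 1706 and 287 against 1809.7, 1566 and 1641 (D10392_i_at) and 1102, 852 and 175 against 1175, 865 and 625 (D12519_s_at). The change of the first was -0.03 without control replicate 3.

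Pairs that disagreed by more than 1 were few. Rab10, a GTPase of membrane traffic, gave 1.18 on rc_AI230406_at (388, 645 and 177 against 842, 598 and 1016) and -0.03 on its other bright probe set. Psme1, an activator of the proteasome, gave -1.06 on D45249_at (2111, 989 and 2684 against 987, 556 and 1127) and 0.07 on D45249_g_at. Hspb1, a small heat shock protein, gave 0.64 and -0.46, and Fkbp1a, the immunophilin FKBP12, -0.39 and 0.61. Sparc, Rps29 and Psat1 completed the set. For these 7 genes the change depended on the probe set read.

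Of 36 genes with 3 or more bright probe sets, 7 were higher on all of them, 7 lower on all and 22 mixed. Those higher throughout were Cx3cl1, Glul, Gstm1, Igfbp2, Map2k2, Pam and Ywhaz. Glul, the glutamine synthetase of astrocytes, gave changes from 0.04 to 0.56 on 4 probe sets, and on M91652complete_seq_at it read 1352, 1418 and 725 against 1743, 1545 and 1551 without overlap. Igfbp2, a growth factor binding protein of the choroid plexus and meninges, gave 0.32 to 0.60 on 3. Gstm1, a glutathione transferase whose close relatives may share its probes, gave 0.32 to 0.96 on 3, with control replicate 3 lowest on each. Those lower throughout were Capns1, Cox8a, Dad1, Prkcb, Psmb4, S100a1 and Sod1. Sod1, the cytosolic superoxide dismutase, gave -0.54 to -0.34, and on Y00404_s_at it read 974, 885 and 1281 against 623, 701 and 827 without overlap. Psmb4, a core proteasome subunit, gave -0.77 to -0.04, with control replicate 3 highest on each of its 3 probe sets.

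**Figure D4:**
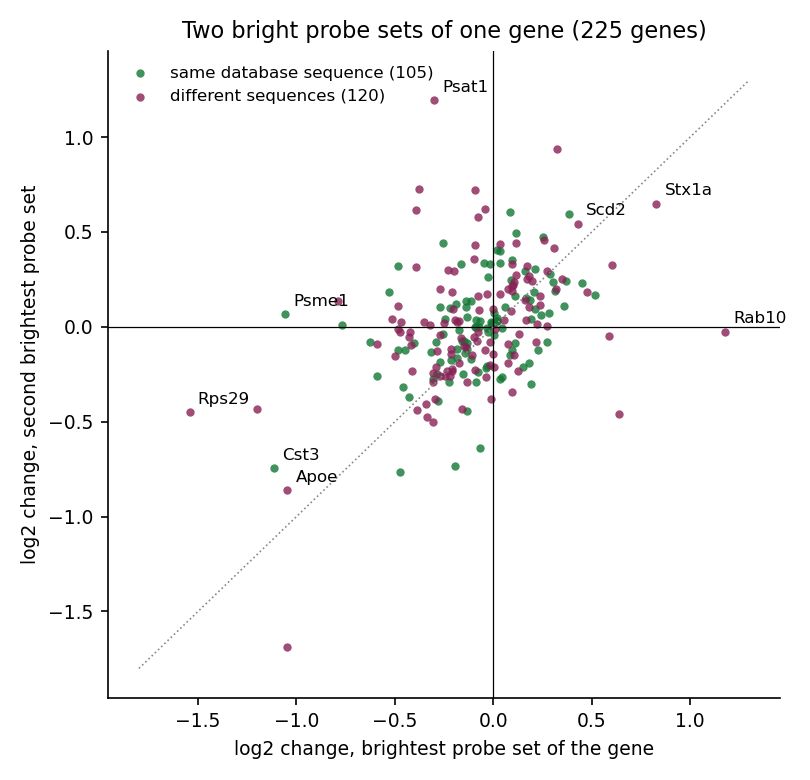
Log2 change of the second brightest against the brightest probe set for the 225 genes with 2 or more bright probe sets, in green where both come from the same database sequence and in purple where they do not. The points lie loosely along the dotted line of equal change, 66.7% of them in the quadrants of equal sign, and the labelled genes are some of those with large or discordant changes.

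The genes were also read in 30 lists by function, of which 28 had at least 3 bright members (blood and apoptosis genes had 2 each). No member of any list passed limma's test over all probe sets. The counts below are of bright members by the sign of their change on the brightest probe set, to be read against 50.6% higher and a median of 0.0025 over all bright genes. Counts without overlap are to be read against 2.09% higher and 3.26% lower over the same genes. The lists were chosen with earlier results of these data known, so all these counts are descriptions only. With each array left out in turn, the median kept its sign in 10 lists and changed it in 18. Of those 10, 5 also kept it in all 4 comparisons within the blocks of top intensity and of 5S reading: the glucocorticoid, translation, lipid synthesis, meningeal and choroid plexus lists. The 4 comparisons share arrays and some of these lists share members (Slc2a1, Igfbp2), so they are not independent. Quantile normalization turned the sign of the median in 7 lists and median centring in 6.

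The immediate early genes were mostly lower. Of 30 genes listed, 25 were tested and 6 were bright, of which 5 were lower and 1 higher, with a median of -0.53. Over the 25 the median was -0.19. Nr4a1 (U17254_g_at), an orphan nuclear receptor induced by firing, read 900.5, 541 and 175 in controls and 247, 198 and 278 after 2 hr. Arc (U19866_at), a synaptic protein made at active synapses, read 1694, 1099.9 and 215 against 511, 546 and 298. In both, control replicates 1 and 2 were high and control replicate 3 was below every 2 hr array, so the groups overlapped. Egr4 (rc_AI145177_f_at), a zinc finger factor, read 362, 289 and 284 against 249, 255 and 252 without overlap, a change of -0.30. Egr1 gave 0.09 on its brightest probe set (AF023087_s_at) and -0.34, -0.475 and -0.63 on its others, so its sign depended on the probe set.

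The arrays bear on these values. Averaged over the 6 bright members, the controls stood at 9.69, 9.30 and 8.47 and the 2 hr arrays at 8.77, 8.62 and 8.70. The spread lay among the controls. Between the arrays of high top values the median was 0.24, between the other 4 it was -0.62, and it was -0.67 and 0.19 within the arrays of low and of higher 5S reading. Without control replicate 1 the change of Nr4a1 was -0.36, and without control replicate 3 it was -1.55.

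The start of Nr4a1 and of Egr4 is shown, being those of the 3 immediate early genes named by the rule that the promoter table held, while Fos is not shown. Calcium and cyclic AMP switch such genes on through the cyclic AMP response element, and its short core was searched. The letters TGACG, or CGTCA on the other strand, were searched on both strands of the 250 bases before the RefSeq start of each gene (build GRCr8). The matches are in capitals, and overlaps with the full element TGACGTCA were looked for.

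Nr4a1, chr7:134259888-134260137, plus strand: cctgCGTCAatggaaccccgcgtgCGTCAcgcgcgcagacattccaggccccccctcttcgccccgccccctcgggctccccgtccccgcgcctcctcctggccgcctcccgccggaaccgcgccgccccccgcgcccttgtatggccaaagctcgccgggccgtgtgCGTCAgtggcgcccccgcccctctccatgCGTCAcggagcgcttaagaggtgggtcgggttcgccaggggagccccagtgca
Egr4, chr4:119607818-119608067, minus strand: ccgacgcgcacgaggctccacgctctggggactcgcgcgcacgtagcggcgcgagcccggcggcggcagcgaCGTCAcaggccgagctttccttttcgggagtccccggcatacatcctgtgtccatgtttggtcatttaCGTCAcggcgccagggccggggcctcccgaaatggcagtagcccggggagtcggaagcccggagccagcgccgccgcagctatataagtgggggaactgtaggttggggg

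Nr4a1 had 4 matches, which begin 246, 226, 82 and 53 bases before the start, and Egr4 had 2, at 178 and 110 bases. Of 33469 rat promoters of the same length, 18.22% held the core and 1.59% the full element, which neither of the pair held. Of the other bright members, Egr1 had 2 matches of the core and Rheb 1. A match is a description of letters, not of binding.

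The glucocorticoid-responsive genes had 5 bright members of 16 tested, and all 5 were higher, with a median of 0.27. Over the 16 the median was 0.38. Besides Slc2a1, Klf9 (D12769_g_at), a transcription factor that hormones induce, read 549, 1019 and 445 against 1169, 844 and 741, with overlap and a change of 0.52, and a second bright probe set gave 0.17. Ndrg2 (rc_AA799560_at), an astrocyte protein, read 2103, 1372 and 1998 against 1680.0, 2103 and 2849.7 with overlap. The list means were 9.76, 9.77 and 9.43 on the control arrays and 10.19, 9.89 and 10.05 after 2 hr, without overlap. Of the 28 lists, the meningeal and vascular one, which also holds Slc2a1, separated too. It stood at 8.93, 8.86 and 8.67 against 9.01, 9.21 and 9.01, and the other lists overlapped. With 1 array left out the median ran from 0.08 to 0.54, and quantile normalization gave 0.55. Sgk1 (L01624_at), the kinase named for this hormone and the gene of smallest p, was not bright: it read 87.9, 134 and 79.3 against 391, 361 and 323, with each 2 hr array far above the highest control, and its limma adjusted p, 0.492, was above the threshold.

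The GABA, glycine and glutamate lists hold some of the proteins that isoflurane acts on, but few of their members were bright. No glycine receptor was bright, and Grik5 and Grm3 were the only bright glutamate receptors. Among the bright members, changes were small or rested on single probe sets. Of 8 bright genes of GABA and glycine signalling, of 26 tested, 4 were higher and 4 lower, with a median of 0.03. Over the 26 the median was -0.04. Apart from Gabbr1, Gad1 (X57573_at), which makes GABA, read 231, 634 and 337 against 597, 300.4 and 458, and Slc6a9 (L13600_at), a glycine transporter, 679, 577 and 283 against 497, 886 and 565. The subunits Gabrb2 and Gabrd of the GABA-A receptor gave -0.18 and -0.04, and Gabbr2, the partner of Gabbr1, gave -0.27. Of 7 bright genes of glutamate receptors and uptake, of 36 tested, 6 were higher, with a median of 0.09. Over the 36 the median was 0.06. Grik5 (Z11581_at), a kainate receptor subunit, read 436, 503 and 205 against 390.2, 805 and 433, and Grm3 (M92076_at), a metabotropic receptor, read 209, 241 and 458 against 150.5, 172 and 274, a change of -0.57. In both genes control replicate 3 was the outlying array, low for Grik5 and high for Grm3.

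Few ion channel genes were bright. Of 5 bright potassium channel genes, of 32 tested, 4 were higher, with a median of 0.14 that was -0.10 without control replicate 3. Over the 32 the median was 0.04. Kcnh2 (U75210_s_at), the ERG channel, read 167, 139 and 155 against 171, 197 and 179 without overlap, a change of 0.25. Kcnk1 (AF022819_at), a tandem-pore channel of the family that volatile anaesthetics open, read 289, 248 and 156 against 341, 196 and 243 with overlap. Kcnj4 (X87635_at), an inward rectifier, read 214, 161 and 150.4 against 149, 155 and 153. Of 4 bright sodium, calcium and HCN channel genes, of 25 tested, 2 were higher and 2 lower, with a median of 0.02. Over the 25 the median was -0.06. Itpr3 (L06096_g_at), a calcium release channel, read 241, 181 and 341 against 275, 345 and 364, and Itpr1 (J05510_at), its relative in neurons, ran from 150.2 to 812 within the controls alone.

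Genes of transmitter release were evenly divided, 12 higher and 10 lower of 22 bright, with a median of 0.01. Vamp2, the vesicle partner of syntaxin, gave -0.39 on its brightest probe set and 0.32 on a second bright one. Syp, the vesicle protein synaptophysin, gave -0.23. Stx8 (AF033109_g_at), a syntaxin of endosomes, read 195, 153 and 291 against 159, 212 and 132. Ion pumps had 8 higher and 6 lower of 14, with a median of 0.03. Slc12a5 (U55816_at), the chloride exporter that makes GABA inhibitory, read 402, 697 and 155 against 459, 572 and 591, and its change of 0.61 was 0.02 without control replicate 3.

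Second messenger genes leaned one way and calcium-binding genes the other. Of 17 bright genes of G proteins, regulators, cyclases and phosphodiesterases 13 were higher, with a median of 0.18 that stayed between 0.04 and 0.27 with any 1 array left out. It was -0.07 between the arrays of high top values and -0.15 within the low 5S arrays, and median centring gave 0.09. Pde4a (M26715_at), a cyclic AMP phosphodiesterase, read 267, 234 and 139.5 against 225, 369 and 233, and Gng10 (rc_AA799996_at), a gamma subunit, 173, 215 and 325 against 372, 299 and 233. The 3 adenylyl cyclases Adcy2, Adcy3 and Adcy5 gave 0.15, 0.18 and 0.20, and Gnas, the stimulatory alpha subunit, gave -0.77 on its brightest probe set and -0.12, 0.01 and 0.30 on 3 others. Of 17 bright calmodulin, calcium-binding and calmodulin kinase genes 12 were lower, with a median of -0.15 that was 0.03 without control replicate 3. Ppp3ca, the catalytic subunit of calcineurin, gave -0.38, and Camk2d (rc_AA894330_s_at), a calmodulin kinase subunit, read 188, 247 and 153 against 350.1, 218 and 249, with changes of -0.92 to 0.02 on 4 dimmer probe sets. Canx (rc_AI010725_g_at), the chaperone calnexin, read 679, 1206 and 177 against 1585, 735 and 922, and its change of 0.96 was 0.18 without control replicate 3.

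Kinases, phosphatases and small GTPases were near the middle. The kinase and phosphatase list had 9 higher and 12 lower of 21, with a median of -0.03. Cdk5 (L02121_at), a neuronal cyclin-dependent kinase, read 274, 316 and 330 against 258, 244 and 232 without overlap, a change of -0.32 that stayed between -0.40 and -0.27 with any 1 array left out. Ptprn (D38222_s_at), a phosphatase-like protein of secretory granules, read 959.8, 1106 and 409 against 1110.3, 1096 and 978. Of 19 bright 14-3-3 and small GTPase genes 11 were higher, with a median of 0.08. Rab11b (rc_AA891669_g_at), a GTPase of recycling endosomes, read 940.2, 1188 and 248 against 849, 1375 and 1275, with control replicate 3 alone, and Arf1 (L12380_at), a GTPase of the Golgi, read 840.1, 955 and 839 against 1249, 1067 and 945. Tubulins, actins and their partners had 9 higher and 9 lower of 18, with a median of -0.01. Actg1 (X52815cds_f_at), a cytoplasmic actin whose probes may read its near relatives, read 3235, 3046 and 744 against 3066, 1712 and 5247. Gap43 (L21192_at), a growth cone protein, read 626, 1196 and 1556 against 902, 819 and 719.9, and Marcks (rc_AA899253_at), a protein kinase C substrate, 147, 277 and 162 against 258, 205 and 223.

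The proteasome list was the most one-sided of those with over 10 bright members. Of 22 bright members of 28 tested, 20 were lower and 2 higher, with a median of -0.21. Psmc1 (-0.18) and Psmc4 (-0.14), ATPases of the proteasome cap, were lower without overlap. Nedd8 (rc_AA892544_s_at), a ubiquitin-like modifier, read 1394, 1832 and 2697 against 1205, 1299 and 1480.4, and Ube2b (rc_AA799612_at), a ubiquitin-conjugating enzyme, 536, 728 and 499.9 against 637, 399.6 and 318, with -0.03 on its other bright probe set. The core subunit Psmb3 gave -0.59, Psmb4 -0.47 and Psmb1 -0.37, and Psmd2, of the cap, gave 0.17. Averaged over the list, the control arrays stood at 9.25, 9.17 and 9.81 and the 2 hr arrays at 9.20, 9.07 and 9.20, so control replicate 3 stood alone and the other 5 arrays lay close together. Without that array the median was -0.04. It was -0.84 between the arrays of high top values and -0.11 between the other 4, and 0.03 and -0.75 within the low and higher 5S arrays.

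Ribosomal protein genes had 25 lower and 8 higher of 33 bright, with a median of -0.16 that quantile normalization turned to 0.10. Their means were 10.98, 10.73 and 12.35 on the control arrays and 10.76, 10.62 and 12.05 after 2 hr, and replicates of a group differed far more than the groups did. Rps29 (X59051cds_s_at), of the small subunit, read 9629, 6414 and 18372 against 6533, 315 and 22296. Rplp0 (X15096cds_s_at), of the large subunit's stalk, read 3938, 3070.0 and 5875 against 3005, 1504 and 4836, and Rpl23 (X58200mRNA_g_at) 2654, 2388 and 7724 against 2273, 1150.4 and 5104, with -0.08 on its other bright probe set. Translation factors had 6 lower and 3 higher of 9, with a median of -0.19. Eif2b3 (rc_AI639441_at), of the exchange factor that stress inhibits, read 294, 270.3 and 330.2 against 277, 228 and 256. Eif2s1 (J02646_at), the alpha subunit of initiation factor eIF2, read 192, 209 and 262 against 217, 132 and 210.2, and Eif4a2 (U64705cds_f_at), an initiation helicase, 2189.6, 1987 and 1580.0 against 2129.9, 1149 and 1556. For Eef2, the elongation factor, the brightest probe set gave -0.27 and 3 others 0.20, 0.825 and 0.93.

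Energy metabolism showed no common direction. Of 23 bright genes of glycolysis and the citrate cycle 13 were higher and 10 lower, with a median of 0.02. Mdh1 (AF093773_s_at), the cytosolic malate dehydrogenase, read 3122, 3448 and 3252 against 3032, 1596 and 2052 without overlap, a change of -0.61 (SE 0.403), and 2 hr replicate 1 lay close to the controls. Suclg1 (J03621_at), a subunit of succinyl-CoA ligase, read 442, 433 and 593 against 409, 368 and 373 without overlap, and a second bright probe set gave -0.475. Of 30 bright oxidative phosphorylation genes 13 were higher and 17 lower, with a median of -0.09 that was 0.07 without control replicate 3. Cyc1 (rc_AA799474_at), cytochrome c1, read 1283, 1212 and 839.8 against 1309.8, 1582 and 1693 without overlap. Sdha, of succinate dehydrogenase, gave 0.27 and Atp5f1b, of the ATP synthase, -0.48, each also without overlap. Atp5f1c (L19927_at), of the ATP synthase, read 957, 849 and 1276 against 883, 769 and 653, and Slc25a4 (D12770_s_at), the ADP/ATP carrier, 2111, 2381 and 2441 against 2239, 1661 and 1263.

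Chaperones had 13 lower and 6 higher of 19, with a median of -0.14 that kept its sign with each array left out (-0.22 to -0.02) and was 0.01 between the arrays of high top values. Hsp90ab1, a cytosolic chaperone, gave -0.47 on its brightest probe set, and its 4 bright probe sets ran from -0.49 to 0.03. Dnaja1, a co-chaperone, gave -0.48 and 0.11 on 2 bright probe sets. Fkbp1a (rc_AI228738_s_at) read 1349, 1316 and 1151 against 899, 1097 and 912 without overlap, and 3 other bright probe sets gave 0.61, -0.02 and -0.37. Antioxidant and conjugation enzymes had 10 higher and 12 lower of 22, with a median of -0.05. Of the 22, 3 were lower without overlap. Besides Blvra and Prdx2, the third was Prdx6, another peroxiredoxin, at -0.35, whose other bright probe sets gave 0.03 and 0.18. Cyp2d4 (rc_AA997886_s_at), a cytochrome P450 of the brain, read 674, 422 and 490.3 against 595, 875 and 664.

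Lipid synthesis genes leaned higher. Of 15 bright members of 27 tested 11 were higher and 4 lower, with a median of 0.18, and Mvd and Elovl5 were higher without overlap. Msmo1 (rc_AI172293_at), a sterol oxidase of cholesterol synthesis, read 632, 507 and 318 against 830.2, 666 and 535, and Acat2 (rc_AA859980_g_at), which joins the first units of the pathway, 218, 325 and 272 against 389, 457 and 299. Scd2, a fatty acid desaturase, gave 0.43 and 0.54 on 2 bright probe sets, with control replicate 3 lowest on both, and Acly, which supplies acetyl-CoA, gave 0.35. The 4 lower members were Apoe, Fabp3, Fabp5 and Fdps. The first 3 carry lipid rather than make it, a division drawn after the values were seen. Fdps, a synthase of the pathway itself, gave -0.21. The median was 0.04 without control replicate 3 and 0.30 without control replicate 1, and median centring gave 0.09.

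Glial lists held many of the very bright genes described above. Of 14 bright astrocyte genes 7 were higher and 7 lower, with a median of -0.09 that was 0.255 without 2 hr replicate 2. Of 12 bright myelin genes 5 were higher and 7 lower, with a median of -0.04. Qdpr (J03481mRNA_g_at), a pterin reductase rich in oligodendrocytes, read 813, 742 and 745 against 529.5, 811 and 618, and Pllp (Z49858_at), plasmolipin, 300.2, 386 and 376 against 307, 381 and 216. Of 9 bright complement, microglia and antigen presentation genes 5 were higher and 4 lower, with a median of 0.03. Grn (X62322_g_at), the lysosomal protein progranulin, read 333, 351 and 168 against 339.8, 422 and 422, Ctsb (X82396_at), a lysosomal protease, 909, 822 and 254 against 852, 1032 and 543, and Cd63 (X61654_at), a tetraspanin of late endosomes, 643, 577 and 1204 against 601, 842 and 516.

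Bright members of the meningeal and vascular list and of the choroid plexus and thyroid hormone list were more often higher than lower. Igfbp2 is a bright member of both. Slc2a1 and Col1a1, the largest members of the endothelial and meningeal marker sums given above, are themselves in the meningeal and vascular list. Of 12 bright meningeal and vascular genes 8 were higher, with a median of 0.20 that ran from 0.14 to 0.46 with 1 array left out. Col1a1 (M27207mRNA_s_at), a collagen chain, read 332, 400.4 and 129.6 against 455, 507 and 379, and its change of 0.78 was 0.28 without control replicate 3. Its dimmer probe sets gave 0.03, 0.18 and 0.10. Igfbp2 (M91595exon_s_at) read 342, 245 and 257 against 326, 569 and 407, a change of 0.60 (SE 0.313). All 4 bright members of the choroid plexus and thyroid hormone list were higher, with a median of 0.33, but over all 12 tested the median was -0.01. Thra (M31174_at), a thyroid hormone receptor, read 1548, 1517 and 873 against 1491, 1685 and 1737, and Dio3 (U24282_at), which inactivates the hormone, 140.1, 151 and 172 against 149, 223 and 202, with -0.48 on a dimmer probe set.

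Neuropeptide genes were even, with 7 higher and 7 lower of 14 and a median of -0.02. Penk (S49491_s_at), the enkephalin precursor, read 263, 380 and 2011 against 172, 759 and 227, with control replicate 3 far above every other array, and its change of -0.92 was -0.03 without it. Pcsk2 (M83746_at), a peptide-processing protease, read 589, 518 and 284 against 459.9, 209 and 423, and Cpe (L07281_at), a carboxypeptidase of the same granules, 2217, 2766 and 1414 against 2799.5, 2306 and 2813. The 3 bright clock genes had positive changes, with a median of 0.29 that was -0.19 between the arrays of high top values, and Tef turned negative under quantile normalization and median centring. Dbp (J03179_g_at), a clock output factor, read 545, 547 and 298 against 675, 768 and 481, Csnk1d (L07578_at), a clock kinase, 235, 231 and 253 against 318, 359.9 and 221, and Tef (S58745_at), a relative of Dbp, 243, 172 and 227 against 277, 254 and 142. The sources used here do not give the hour at which the brains were taken.

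**Figure D5:**
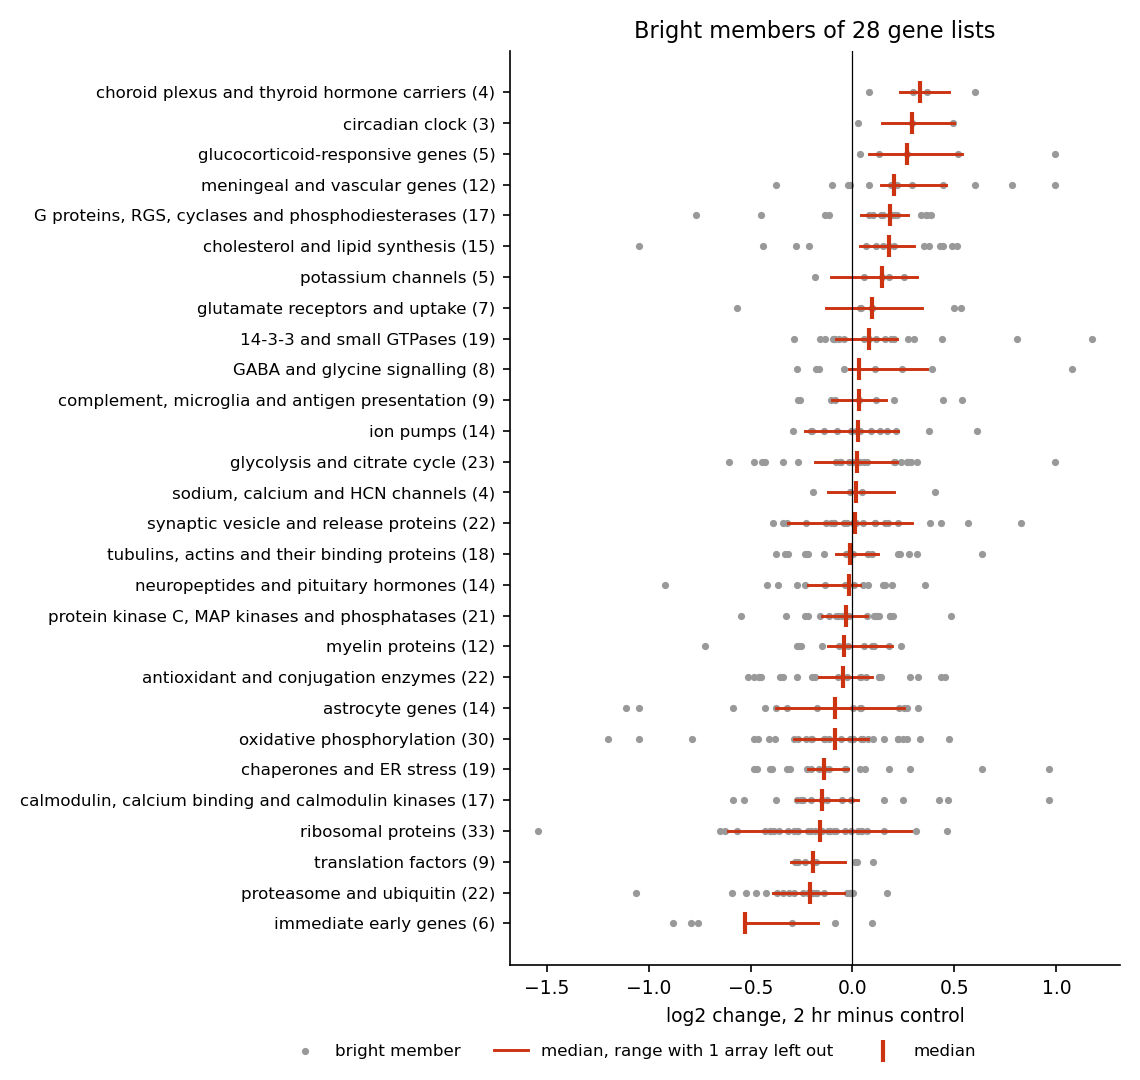
Log2 change of each bright member (grey) of 28 gene lists, with the median as a red tick and a red line from the lowest to the highest median when 1 array is left out, and the number of bright members in parentheses. The line crosses 0 in 18 lists, and the immediate early genes have the lowest median at -0.53 and the choroid plexus and thyroid hormone list the highest at 0.33.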

How the data were processed

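The values are the intensities that the authors deposited, whose trimmed means are nearly equal between arrays. The sources used here name no array software or expression algorithm. Of 8799 probe sets, 59 controls were left out, and 970 were removed because fewer than 2 of the 8 arrays exceeded the floor. limma 3.58.1 in R 4.3.3 fitted 1 mean per group over all 8 arrays with an intensity trend, and p-values were adjusted by Benjamini-Hochberg over 7770 probe sets. The code was tested on simulated data. Gene names came from the platform annotation: 7006 probe sets had 1 symbol, 308 several and 1426 none, and 6994 matched a RefSeq gene. Named genes were the 12 bright genes without overlap of smallest p in each direction, genes whose bright probe sets all separated the groups (0 found) and up to 3 bright members of smallest p per list. Names given outside that rule were picked after their values were seen. The comparison, gene lists and markers were chosen with earlier results of these data known. Promoters are RefSeq sequences of build GRCr8. Alternatives changed the floor, filter, scaling, samples, blocks, brightness limit and each array. Arrays give no read depth, and their number limits the precision.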

Additional observations from a re-analysis of the deposited data

Results flagged for a closer look

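Signal above the control group appeared in 2 of the 59 control probe sets, which enter no comparison of the report. AFFX-BioB-M_st read 8.6, 17.3 and 20.7 on the control arrays and 22.8, 33.0 and 37.4 after 2 hr, with a 2 hr mean of 31.1. AFFX-TrpnX-5_at read 2.4, 13.1 and 9.6 on the control arrays and 16, 19.9 and 25.3 after 2 hr, with a 2 hr mean of 20.4. On both, every 2 hr array lay above every control array, at low intensities, and 0 control probe sets lay lower without overlap. These are 3.39% of the control probe sets, near the 2.9% of all tested probe sets that were higher without overlap.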

How the results depend on the processing

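In limma, 0 probe sets passed at an adjusted p under 0.05 under every alternative run. The count at an unadjusted p under 0.05, 139 as reported, was 86 with the floor at the 40th percentile, 80 with a strict filter, 245 with the top-intensity arrays as a block and 355 with the 5S reading as a block. With 1 array left out it was 124 to 223, the highest without control replicate 3. The count of bright probe sets without overlap, 75 as reported, was 131 with brightness set at 6 (4.85% of 2701), 45 at 8 (4.97% of 906) and 153 to 284 with 1 array left out, where fewer arrays make separation more likely by construction. The median of the class from 9 to 11 was -0.079 under median centring, and that of the highest class ran from -0.613 to 0.126 with 1 array left out. Sign agreement between bright probe sets was 73.2% under median centring, 75.6% with the 5S block and 67.1% to 74.2% with 1 array left out. Same-numbered control and 2 hr arrays were compared through their deviations from the group means, which correlated at 0.106, -0.088 and 0.286. Differently numbered arrays gave -0.343 to 0.397, a range that held those values, so no pairing by number was seen. With the replicate block the unadjusted count was 180, with 124 higher and 56 lower. The cause of the other movements was not tested.

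The change of Itpr1 was -0.028 under median centring, and that of Tef was -0.030 under quantile normalization and -0.050 under median centring. With 1 array left out the sign also turned for Actg1 (-0.056 to 1.046), Rps29 (-2.862 to 0.211), Stx1a (-0.026 to 1.259), Gad1 (-0.089 to 0.64), Kcnk1 (-0.08 to 0.366), Cacna2d1 (-0.331 to 0.018), Itpr1 (-0.619 to 0.598), Mbp (-1.125 to 0.049), Cst3 (-1.962 to 0.078), Apoe (-1.927 to 0.15), Ctsb (-0.146 to 0.775), Cd63 (-0.462 to 0.068) and Tef (-0.152 to 0.328). The other 80 of the 93 named genes kept their sign with each array left out. Leaving out control replicate 3 weakened or turned the change most in 44 of the 93, and leaving out 2 hr replicate 2 did so in 20.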
